A study of Mus musculus with 6 samples.

Results

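The clustered protocadherin locus on mouse chromosome 18 held 218 of the 29950 m6A peaks listed for adult Fto knockout brain. Its members were chosen by position: listed peaks (mm9, 1-based coordinates here) whose midpoint lies from 37085000 to 38005000 on chromosome 18. The locus was singled out because its peaks were already known to lie unusually close together, so its peak number and density are given as a description and carry no test. Its 3 blocks are also set by position, with Pcdha from 37085000 to 37400000, Pcdhb from 37400001 to 37700000 and Pcdhg from 37800000 to 38005000.

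The tissue was midbrain and striatum of adult C57BL/6 mice with a global knockout of Fto, which encodes a demethylase acting on N6-methyladenosine (m6A). All 6 libraries share this genotype. RNA depleted of ribosomal RNA was immunoprecipitated with an m6A antibody (MeRIP, n = 3 libraries) or sequenced as input (n = 3). They contribute to a single list of enriched regions that carries no value per replicate, no height and no strand, so the values below have no replicate error, depth is unknown, and the knockout has no control here. The labels do not say whether replicates came from separate animals, and the identity of the tissue could not be checked because the list holds no expression value.

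Clustered protocadherins are cadherin-type adhesion proteins of the neuronal surface, expressed in different combinations by single neurons and known for self-recognition of neurites. In the Pcdha and Pcdhg families, each gene has its own large variable exon, which encodes the extracellular and transmembrane parts. That exon is spliced to a short set of 3′ exons shared by the whole family. Pcdhb genes consist of a single coding exon and have no shared exons. All 3 families are transcribed in the direction of increasing coordinates. m6A is commonly found in long internal exons and near stop codons.

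The RefSeq gene table (GRCm38.p6) lists 57 protein-coding genes of the 3 families on chromosome 18, namely 14 of Pcdha, 22 of Pcdhb and 21 of Pcdhg. In its gene order, Pcdha1 comes first and the C-type genes Pcdhac1 and Pcdhac2 close the Pcdha family. Pcdhb1 to Pcdhb22 follow, then Slc25a2, a mitochondrial carrier gene, and Taf7, which encodes a subunit of the general transcription factor TFIID. Pcdhga1 opens the Pcdhg family, and the C-type genes Pcdhgc3, Pcdhgc4 and Pcdhgc5 close it. That table uses a later genome build than the peaks, so no stretch was assigned to a gene or exon, and only gene names, numbers and order were used.

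Merging peaks that touch end to end reduced the 218 listed peaks to 147 separate stretches of enrichment, which covered 32100 bp. Pcdha held 37 peaks in 27 stretches, Pcdhb 83 peaks in 58 stretches and Pcdhg 98 peaks in 62 stretches. The space between the Pcdhb and Pcdhg blocks held 0 peaks. Peak-free sequence of 110650 bp separated the last Pcdha stretch from the first Pcdhb stretch, and 122550 bp separated the last Pcdhb stretch from the first Pcdhg stretch. The enriched sequence of the locus thus lay in 3 islands, each inside 1 block.

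**Figure D1:**
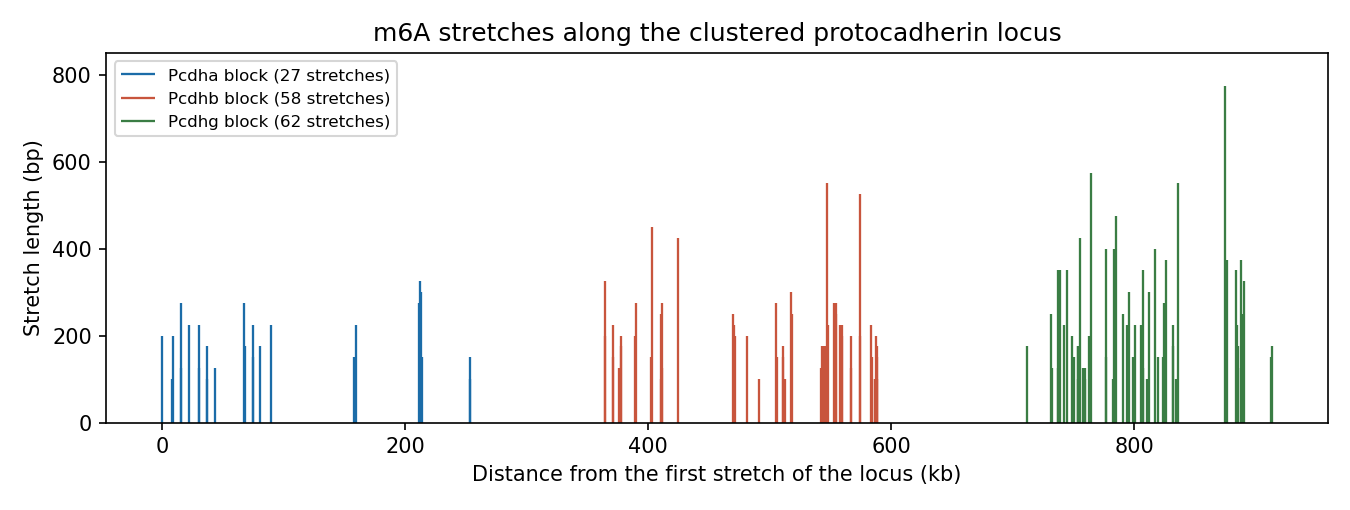
Each vertical line is 1 m6A stretch, placed by its distance from the first stretch of the locus (kb) and drawn to its length (bp), with colours for the 3 blocks. The 27 Pcdha stretches reach at most 325 bp, and the tallest line, in the Pcdhg block, is 775 bp.

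Empty intervals also lay on both flanks of the locus. Before the first stretch, at 37091576 to 37091775 (200 bp), lay 133850 bp without a peak. The next 2 inside that border were at 37100076 to 37100175 (100 bp) and 37100476 to 37100675 (200 bp). Just outside it were stretches at 36957526 to 36957725 (200 bp), 36956201 to 36956300 (100 bp) and 36950926 to 36951275 (350 bp). At the other end, the last stretch of the locus, at 38004826 to 38005000 (175 bp), ended exactly on the border and was followed by 91925 bp without a peak. The preceding stretches were at 38003601 to 38003750 (150 bp) and 37981451 to 37981775 (325 bp). Beyond the border came stretches at 38096926 to 38097125 (200 bp), 38117676 to 38118050 (375 bp) and 38348826 to 38348925 (100 bp). Both borders therefore fall at wide empty intervals, and moving the end border outwards by less than that interval adds no stretch. Intervals of about this width were not particular to the locus. The upper quartile of all gaps was 82431 bp on chromosomes 1 to 19 and X and 86675 bp on chromosome 18. Inside the locus, the 122550 bp between Pcdhb and Pcdhg was wider than the end interval.

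Stretch density was lowest in the first block and highest in the last. Pcdha had 8.57 stretches per 100 kb of block, Pcdhb 19.3 and Pcdhg 30.2. Pcdhg was thus 3.53 times as dense as Pcdha and 1.56 times as dense as Pcdhb, and Pcdhb was 2.26 times as dense as Pcdha. Part of this order follows from how tightly the blocks were drawn. Taken over the span from first to last stretch, the ratio of Pcdhg to Pcdhb was 1.19 and that of Pcdhg to Pcdha was 2.89. In covered bases the order was the same and steeper, with 16.1 bp per kb in Pcdha, 39.9 bp per kb in Pcdhb and 73.4 bp per kb in Pcdhg. Relative to family size, Pcdha had 1.93 stretches and 362.5 covered bp per protein-coding gene. Pcdhb had 2.64 stretches and 544.3 bp per gene, and Pcdhg had 2.95 stretches and 716.7 bp per gene. Per-gene values count the shared 3′ exons of Pcdha and Pcdhg together with the variable exons, and transcript levels, which affect where a peak can be called, are not in the list.

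Stretches of the locus were of ordinary length. Over the whole locus they had a median of 200 bp and a mean of 218.4 bp ± 111.8 (SD over stretches, n = 147). All other stretches on chromosomes 1 to 19 and X had the same median and a mean of 232.1 bp ± 146.1 (SD over stretches, n = 19233). In the locus, 61 of 147 stretches (41.5%, exact binomial 95% interval 33.4 to 49.9) were longer than 200 bp, the greatest length of 1 listed peak. The background share among the other stretches was 40.5%, so the locus is near the background in this measure. The remainder of chromosome 18 had 41.7% (223 of 535). Intervals cover counting error only and treat neighbouring stretches as independent.

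Mean length was lowest in Pcdha and highest in Pcdhg, a difference that was not tested. The mean stretch was 188.0 bp ± 64.1 in Pcdha (SD over stretches, n = 27), 206.5 bp ± 97.1 in Pcdhb (n = 58) and 242.7 bp ± 134.9 in Pcdhg (n = 62). Stretches over 200 bp made up 37.0% in Pcdha (10 of 27, exact binomial 95% interval 19.4 to 57.6), 36.2% in Pcdhb (21 of 58, 24.0 to 49.9) and 48.4% in Pcdhg (30 of 62, 35.5 to 61.4). The 3 intervals overlap. Stretches of at least 400 bp, a length chosen after the values had been seen, numbered 0 of 27 in Pcdha, 4 of 58 in Pcdhb (6.90%) and 8 of 62 in Pcdhg (12.9%). The background share elsewhere on chromosomes 1 to 19 and X was 11.2%, so Pcdhg was near the background and long stretches were not particular to it.

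The longest stretches of Pcdha were at 37303726 to 37304050 (325 bp) and 37304426 to 37304725 (300 bp), both in the same group late in the block. The third rank was a tie at 275 bp, of which the first by position lay at 37107476 to 37107750. In Pcdhb the longest were at 37639151 to 37639700 (550 bp), 37665601 to 37666125 (525 bp) and 37495176 to 37495625 (450 bp), spread over the block. Pcdhg had the longest stretch of the locus, at 37965926 to 37966700 (775 bp), which directly followed the widest empty interval of that block. It was followed in length by 37855726 to 37856300 (575 bp) and 37927476 to 37928025 (550 bp), the last stretch before the same empty interval.

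Spacing also varied within and between blocks. The median gap between neighbouring stretches was 3075 bp in Pcdha (interquartile range 262.5 to 7281 bp), 700 bp in Pcdhb (175 to 4925 bp) and 1075 bp in Pcdhg (350 to 3250 bp). The 95% intervals of these medians, from order statistics, overlap (300 to 6625 bp, 250 to 1425 bp and 475 to 1850 bp). Merging peaks within 200 bp first gave 6250, 1612.5 and 1575 bp, which turns the order of Pcdhb and Pcdhg. Each block mixed very short gaps with gaps of several kb, as did the whole list. All gaps on chromosomes 1 to 19 and X had a median of 10950 bp (interquartile range 400 to 82431 bp). Those of chromosome 18 had a median of 4925 bp (325 to 86675 bp). In Pcdha the division was complete, since 13 of its 26 gaps were at most 800 bp and the other 13 were at least 5350 bp. Gaps under 200 bp numbered 4 of 26 in Pcdha, 17 of 57 in Pcdhb and 9 of 61 in Pcdhg. Another stretch lay within 1 kb for 22 of 27 stretches in Pcdha (81.5%), 52 of 58 in Pcdhb (89.7%) and 40 of 62 in Pcdhg (64.5%). Over the locus this was 114 of 147 (77.6%), beside a background share of 53.9%. Closeness of peaks was the ground for choosing the locus, so this comparison supports nothing further. Within it, the densest block by stretches per 100 kb, Pcdhg, had the lowest share with a close neighbour.

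**Figure D2:**
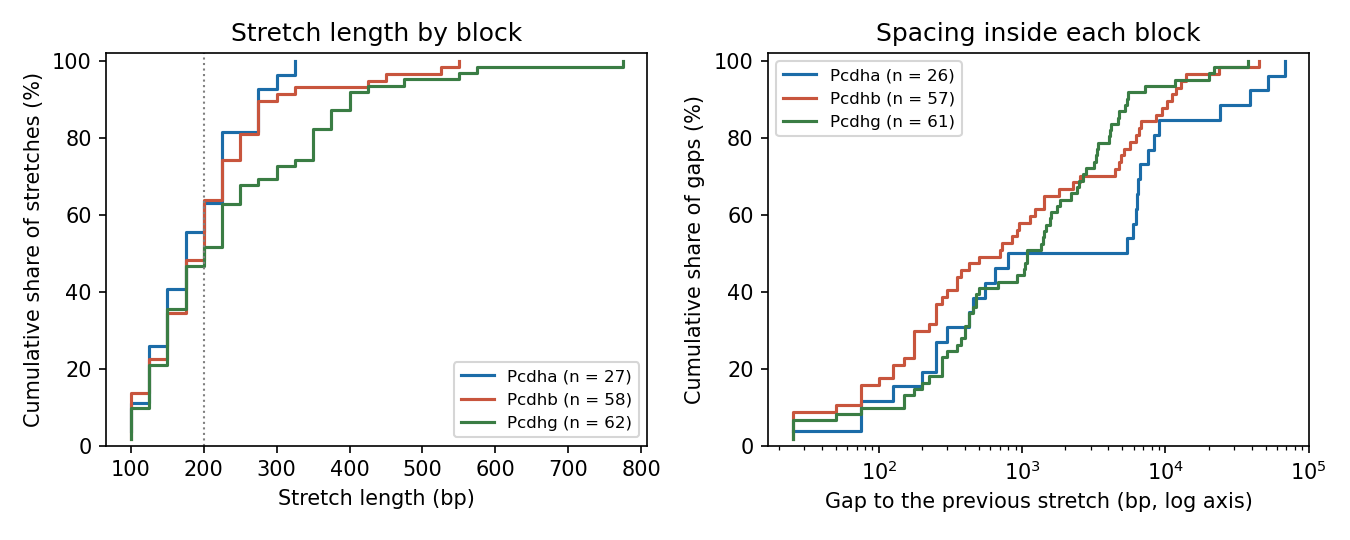
Left, cumulative share of stretches (%) against stretch length (bp) in each block, with a dotted line at 200 bp. Right, cumulative share of gaps (%) against the gap to the previous stretch of the same block (bp, log axis). Above 200 bp the Pcdhg length curve lies to the right of the others, and the Pcdha gap curve is flat between 800 and 5350 bp.

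Joining stretches at most 2.5 kb apart gave 14 groups in Pcdha, 19 in Pcdhb and 20 in Pcdhg, beside 14, 22 and 21 protein-coding genes in these families. Which group belongs to which gene was not assigned, and a group may hold sequence of more than 1 gene or of shared exons. The Pcdha number was 14 at every joining distance tried from 1 to 5 kb, because no gap of that block falls between these sizes. In Pcdhg the number ran from 35 at 1 kb to 9 at 5 kb, and in Pcdhb from 25 to 15. Pcdha thus held sharply separated groups, whereas the numbers of groups in Pcdhb and Pcdhg depend on the distance chosen.

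Groups were small in Pcdha and fuller in the other blocks. In Pcdha, 5 groups held 1 stretch, 7 held 2 and 2 held 3 or more, with a median of 287.5 covered bp per group. Pcdhb had 3 groups of 1 stretch, 8 of 2 and 8 of 3 or more, with a median of 525 bp. Pcdhg had 2, 9 and 9 such groups and a median of 562.5 bp. Groups of several stretches spanned a median of 700 bp in Pcdha (375 to 2275 bp), 1475 bp in Pcdhb (500 to 6500 bp) and 2175 bp in Pcdhg (550 to 6450 bp). The longest stretch was the last of its group in 10 of 18 such groups in Pcdhg and the first in 4. In Pcdhb it was the last in 6 of 16 and the first in 6, and in Pcdha the last in 5 of 9 and the first in 3.

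Group starts followed each other at steps of several kb. The median step was 7725 bp in Pcdha, 9525 bp in Pcdhb and 6525 bp in Pcdhg. Steps from 4 to 10 kb, a range chosen after seeing the values, made up 9 of 13 in Pcdha, 10 of 18 in Pcdhb and 14 of 19 in Pcdhg. The first 7 Pcdha groups, from 37091576 to 37135325, were separated by 6 steps of 8500, 7025, 6900, 7725, 6675 and 6800 bp. After a step of 24050 bp, 4 more groups followed at 7325, 5800 and 9125 bp. Pcdha thus opened with 11 small groups of 1 or 2 stretches each.

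**Figure D3:**
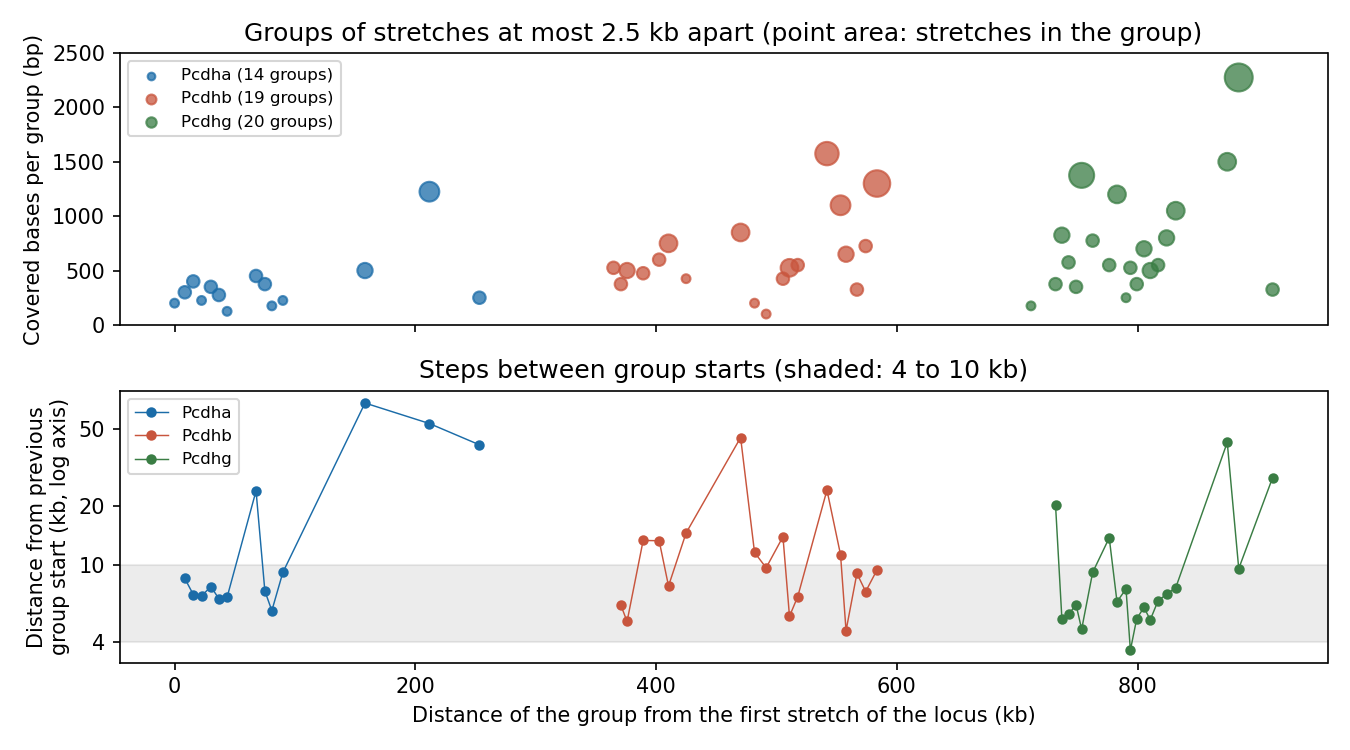
Top, covered bases (bp) of each group of stretches at most 2.5 kb apart against its distance from the first stretch of the locus (kb), with point area showing the number of stretches. Bottom, distance from the previous group start (kb, log axis), with 4 to 10 kb shaded. Of 50 steps, 33 lie in the shaded band, and the last 3 Pcdha steps, of 68250, 53500 and 41550 bp, lie above it.

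The end of Pcdha differed from its beginning. Dividing each block at gaps of at least 20 kb, a size chosen after the gaps had been seen, gave 5 segments in Pcdha, 3 in Pcdhb and 4 in Pcdhg. The first 2 Pcdha segments held the 11 small groups. A gap of 68025 bp, the widest inside the block, preceded 3 stretches at 37249751 to 37251475 that covered 500 bp. After 51775 bp came the richest Pcdha group, 5 stretches at 37303251 to 37305525 that covered 1225 bp, 53.8% of its span. This group also filled the densest 10 kb window of the block, 37300001 to 37310000. A further gap of 39275 bp preceded the last 2 stretches, at 37344801 to 37344950 (150 bp) and 37345401 to 37345500 (100 bp). The block therefore ended with 3 lone groups far apart, whereas its 11 earlier groups lay within the first 90150 bp. Which of them hold the C-type genes or the shared exons was not tested.

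Pcdhg was arranged around 1 large segment. Its first stretch, at 37802926 to 37803100 (175 bp), stood alone 20200 bp before the next. Whether it belongs to Pcdhga1 or to Taf7, which precedes it in the gene order, was not tested. The main segment, at 37823301 to 37928025, held 45 stretches in 16 groups and 10775 covered bp. Its densest 10 kb window, 37840001 to 37850000, held 8 stretches, against a median of 4 per occupied window of the block. The widest gap of the block, 37900 bp, came next. Beyond it, 14 stretches at 37965926 to 37981775 covered 3775 bp and included both the 775 bp stretch and the richest group of the locus. That group held 10 stretches and 2275 covered bp at 37975476 to 37981775. After 21825 bp, the last 2 stretches lay at 38003601 to 38003750 (150 bp) and 38004826 to 38005000 (175 bp). Whether this pair belongs to Pcdhg or to a gene beyond Pcdhgc5, where the gene order used here ends, was not tested.

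As drawn by position, the Pcdha and Pcdhg blocks were alike at their ends in the final pair alone. Both blocks closed with 2 short stretches, covering 250 and 325 bp, behind a gap of more than 20 kb. Whether either pair lies in shared exons was not tested. The likeness holds for the families only if the last pair belongs to Pcdhg. The Pcdhb block did not close in this way. Its first stretch was at 37456151 to 37456475 (325 bp) and its last at 37680276 to 37680375 (100 bp). Its 3 segments held 16, 14 and 28 stretches, and its widest gap, 44875 bp, fell before 37561726. The last Pcdhb segment, at 37633451 to 37680375, was the richest, with 59.7 stretches per 100 kb of span against 26.4 and 29.1 in the others. It ended in the group with the most stretches of the block, 9 at 37675001 to 37680375, which covered 1300 bp with none over 225 bp. The group at 37633451 to 37639950 covered more, 1575 bp, with 7 stretches. The group of 9 stretches also provided the densest 10 kb window of the block, 37670001 to 37680000, with 8 stretches.

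The 3′ terminal part was also compared by a fixed distance, since the shared exons could not be placed in mm9. The last 30 kb of the Pcdha span held 2 stretches, none over 200 bp, or 6.67 per 100 kb against 11.2 in the rest of the span, a ratio of 0.597. With the last 20 kb this ratio was 0.936, and 2 stretches are too few to set the parts apart. In Pcdhg the last 30 kb held 12 stretches, or 40 per 100 kb against 29.1 in the rest, a ratio of 1.38 (0.667 to 2.62). With the last 20 kb the Pcdhg ratio was 0.303, because that distance leaves only the final pair and the empty interval before it. All Pcdhg distances were counted back from that pair, whose gene was not tested. Ratios with the pair left out were not computed, so the direction in Pcdhg is not settled. In Pcdhb the last 30 kb held 15 stretches, or 50 per 100 kb against 22.1 in the rest, a ratio of 2.26 (1.17 to 4.15). Whether stretches are sparser in shared than in variable exons was not tested, as exon length and the number of transcripts that include each exon are not in the list.

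At its own length of 920 kb, the locus held more enriched sequence than any other window tiled from the chromosome starts. Among 2115 other occupied windows of 920 kb on chromosomes 1 to 19 and X, the median held 6 stretches and the highest, on chromosome 10 at 80040001 to 80960000, held 80. The locus held 147. In covered bases the locus had 32100 bp, and the highest other window, on chromosome 10 at 79120001 to 80040000, had 22825 bp. These ranks describe a region that was chosen for its peak number.

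The richest 100 kb windows outside the locus had fewer stretches per 100 kb than Pcdhg and a greater mean stretch length. That of chromosome 2, from 121100001 to 121200000, had 14 stretches with a mean length of 607.1 bp ± 567.4 (SD over stretches). A window of chromosome 9, from 108000001 to 108100000, had 22 stretches with a mean of 343.2 bp ± 216.9. That of chromosome 7, from 17500001 to 17600000, had 21 stretches with a mean of 326.2 bp ± 287.9. In these windows 64.3%, 63.6% and 57.1% of stretches were over 200 bp, against 48.4% in Pcdhg. The exact binomial 95% intervals (35.1 to 87.2, 40.7 to 82.8 and 34.0 to 78.2) overlap that of Pcdhg. Pcdhg reached 73.4 covered bp per kb, beside 85.0, 75.5 and 68.5 in the windows, with 30.2 stretches per 100 kb beside 14, 22 and 21. High coverage in Pcdhg thus came from many stretches of ordinary length, and in the chromosome 2 window from fewer and longer ones. The windows were picked for their number of listed peaks, which long stretches raise, so this difference is a description. It also depends on the denominator. From first to last stretch the windows spanned 64400, 40250 and 79850 bp of 100 kb, whereas Pcdhg spanned 202075 bp of its 205000 bp block.

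**Figure D4:**
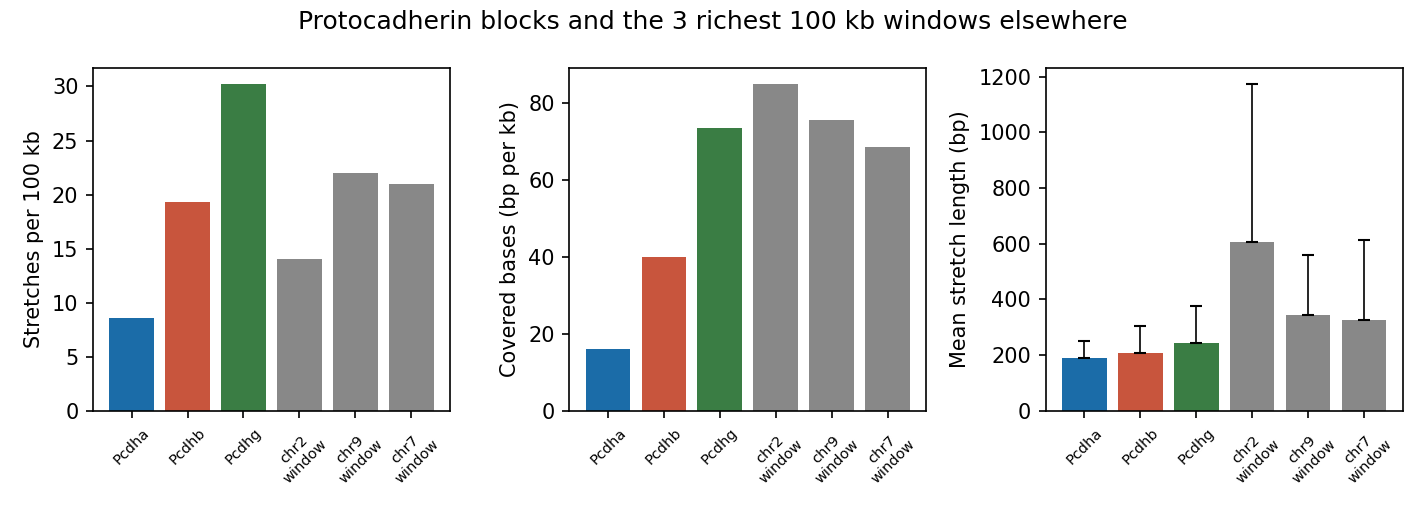
Bars give stretches per 100 kb, covered bases (bp per kb) and mean stretch length (bp, error bars 1 SD over stretches) for the 3 protocadherin blocks and the 3 richest 100 kb windows elsewhere. Pcdhg leads in number of stretches per 100 kb of block or window (30.2), and the chromosome 2 window leads in mean length (607.1 bp). Stretches filled only part of each window, so the lead in number depends on this denominator.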

How the data were processed

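The values used were the start and end coordinates of 1 peak list, deposited by the authors without a header line or any other value. The tools named per the submitters' processing notes are SAMtools 0.1.18 and BWA 0.6.2-r126, and the build is mm9. How peaks were called, and how the 3 MeRIP and 3 input libraries entered the call, was not given in the sources used here. Listed peaks measured 100 to 200 bp. Each of the 147 stretches of the locus was listed as the fewest peaks of at most 200 bp that fill it, so stretches rather than peaks were counted.

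Python 3.11.15, numpy 2.4.6, pandas 2.3.3, scipy 1.17.1 and matplotlib 3.10.9 were used. Touching peaks (gap 0) were merged, stretches at most 2.5 kb apart were joined into groups, and both steps were tested on simulated stretches. The simulated gaps lay well to either side of 2.5 kb, so they checked the code and not that choice of distance. No test was run, since the list has no replicate values. Members, blocks and measures were chosen with earlier results of these data known. Named regions were the 3 longest stretches, densest 10 kb window, richest group, widest gap and end stretches of each block, the 3 stretches on each side of both borders, and the 3 richest 100 kb windows elsewhere. Alternatives covered merging and joining distances, borders, peak length and the terminal distance. Gene names came from RefSeq GRCm38.p6, and no coordinates were compared between builds. Sequences of the locus are not reported here.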

Additional observations from a re-analysis of the deposited data

How the results depend on the processing

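Of 92 alternative values computed, 79 stayed within 1.5 times the value given (counts) or inside its counting interval (shares, medians and ratios), and 13 moved outside. Keeping only peaks at or above the median length left 78 stretches of 147, and 36 of the stretches dropped were over 200 bp, because the list divides the 61 such stretches into parts that differ by at most 2 bp. Merging peaks within 200 bp raised the median gap in Pcdhb from 700 to 1612.5 bp, in Pcdha from 3075 to 6250 bp (5975 bp within 100 bp) and the share of Pcdhg stretches over 200 bp from 48.4% to 61.5%, which follows from joining close neighbours. The same merging lengthened the longest stretch to 1475 bp in Pcdha and 1300 bp in Pcdhb, and merging within 100 bp gave 550 bp in Pcdha. Pcdhg groups numbered 35 at 1 kb and 9 at 5 kb against 20. Splitting at gaps of at least 30 kb, added after seeing the data, left 2 Pcdhg segments in place of 4. The terminal density ratio of Pcdha, 0.597 for 30 kb, was 0.428 for 40 kb and 0.936 for 20 kb. That of Pcdhg, counted back from the final pair of unknown gene, was 1.38 for 30 kb, 0.303 for 20 kb and 0.3 for the last 10% of the span. Against the rest of chromosomes 1 to 19 and X, the locus exceeded the share of stretches over 200 bp by 0.978 percentage points and the share with a neighbour within 1 kb by 23.6 points. Against the 3 richest windows elsewhere the differences were -19.9 and -18.9 points. The order of block densities, with Pcdhg above Pcdhb above Pcdha, held under each denominator, border and unit tried. The ratio of Pcdhg to Pcdhb was lowest, at 1.19, over the span from first to last stretch. Single segments did not keep the order. The last Pcdhb segment had 59.7 stretches per 100 kb of span, against 43.0 in the main Pcdhg segment. No paired analysis was possible because the libraries share 1 list without separate values, which also prevented leaving out any library. An empty interval may lack transcription, depth or enrichment, and the list does not show which.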
